A study of Mus musculus with 6 samples.

Results

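The heat shock proteins and chaperones of the mouse kidney were followed in 6 RNA-seq libraries of C57BL/6 kidneys, 3 labelled IVCC surgery and 3 labelled Sham surgery. Members were taken by symbol. They were the genes whose names begin with Hspa, Hspb, Hspd, Hspe, Hsph, Hsp90a, Dnaj or Cct2 to Cct8, with Cryab, Stip1, Bag3 and Hsf1 added and Hsp90b1 left out. This gave 86 of the 24346 genes in the deposited table. The series title concerns congestion of the kidney and acute kidney injury. IVCC is not spelled out in the labels, which name no age, sex, time after surgery or further treatment for either group. Whether each replicate came from its own animal is not stated either. The p-values below therefore reflect library-to-library spread, which may be technical.

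Heat shock proteins are molecular chaperones, which bind unfolded or partly folded proteins and keep them from clumping. Members of the HSP70 family (Hspa genes) bind and release clients in an ATP-driven cycle that J-domain proteins (Dnaj genes) start and HSP110 proteins reset by exchanging the nucleotide. HSP90 finishes the folding of kinases and steroid receptors, with clients handed over from HSP70 by the adaptor STIP1. The chaperonins are ring-shaped chambers, CCT in the cytosol for actin and tubulin, and HSPD1 with its lid HSPE1 in mitochondria. Small heat shock proteins such as CRYAB hold unfolded proteins without ATP. In the kidney, CRYAB is known as an abundant protein of the medulla, where cells live at high salt and urea concentrations. Many of these genes are induced through heat shock elements, inverted repeats of the unit GAA that the trimeric factor HSF1 binds.

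The promoter sequences were searched for that repeat, because many chaperone genes are known to carry it. The windows were the 250 bases upstream of each start site in RefSeq's promoter table (GRCm38.p6). The shorter motif was GAANNTTC or TTCNNGAA, a pair of inverted units. The longer motif was GAANNTTCNNGAA or TTCNNGAANNTTC, which adds a further unit and contains the shorter one. The shorter motif reads the same on both strands, and the forms of the longer one are each other's reverse complement. A promoter entry was found for 61 of the 77 members that were later tested, and 15 of these (24.6%) held the shorter motif. It was present in 12.4% of 9191 tested genes with an entry and in 12.8% of all 32851 promoter entries in the table. A gene can have several entries and was counted if any held the motif, so the 12.8% is not a per-gene share. The longer motif was found for 3 members, Hspd1, Hspe1 and Dnajb6 (4.92%), against 0.490% of tested genes and 0.466% of the table's entries. The windows below show both of the longer sites, the matched sites of the heat-inducible pair Hspa1a and Hspa1b, and those of Hspb1 and Hsph1. Sequences run 5′ to 3′ on the strand of the gene, and capitals mark the motif bases.
Hspe1 (chr1:55088053-55088082, plus strand): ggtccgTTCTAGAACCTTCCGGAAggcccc
Dnajb6 (chr5:29735844-29735872, plus strand): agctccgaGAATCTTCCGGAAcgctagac
Hspa1a (chr17:34972233-34972280, minus strand): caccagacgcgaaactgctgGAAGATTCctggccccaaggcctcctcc
Hspa1b (chr17:34959315-34959362, minus strand): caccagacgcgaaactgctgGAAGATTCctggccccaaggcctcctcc
Hspb1 (chr5:135887782-135887849, plus strand): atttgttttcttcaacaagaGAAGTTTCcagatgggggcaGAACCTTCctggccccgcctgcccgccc
Hsph1 (chr5:149636351-149636380, minus strand): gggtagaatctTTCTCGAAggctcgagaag
The Hspe1 site is shared with Hspd1, which is transcribed away from it on the other strand, so the bidirectional pair has a single run of units. The windows of Hspa1a and Hspa1b are identical. The windows of Hspe1, Dnajb6 and Hsph1 lie upstream of a RefSeq start but overlap exons annotated in GENCODE M21. Cryab and Hspb2 had no entry in the table. A match is only a run of letters, and binding was not measured.

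Levels are in FPKM, a measure of reads that is divided by transcript length and by library size, so that genes can be compared with each other. Together the 86 members summed to between 6676 and 8425 FPKM per library, which was 0.753% to 0.930% of each library's summed FPKM. Hspa8, the constitutive HSP70 of the cytosol, took 29.1% to 33.0% of the members' sum, with group means of 2135 ± 238 FPKM (IVCC) and 2397 ± 318 FPKM (Sham; mean ± SD, n = 3 each, as throughout). It was followed by Hsp90ab1, Hspe1, Hspd1, Hspa9 and Hspa5, whose means over the 6 libraries ran from 557 down to 278 FPKM. Neighbours in this order lay close together. The Hspe1 and Hsp90ab1 libraries overlapped, as did those of Hspd1 and Hspe1, whereas every Hspa8 library exceeded every library of any other member. The heat-inducible genes were far lower in both groups, with Hspa1a at a mean of 3.35 FPKM and Hspa1b at 4.50 FPKM. FPKM carry no read totals, so the counting error behind low values is not known.

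**Figure D1:**
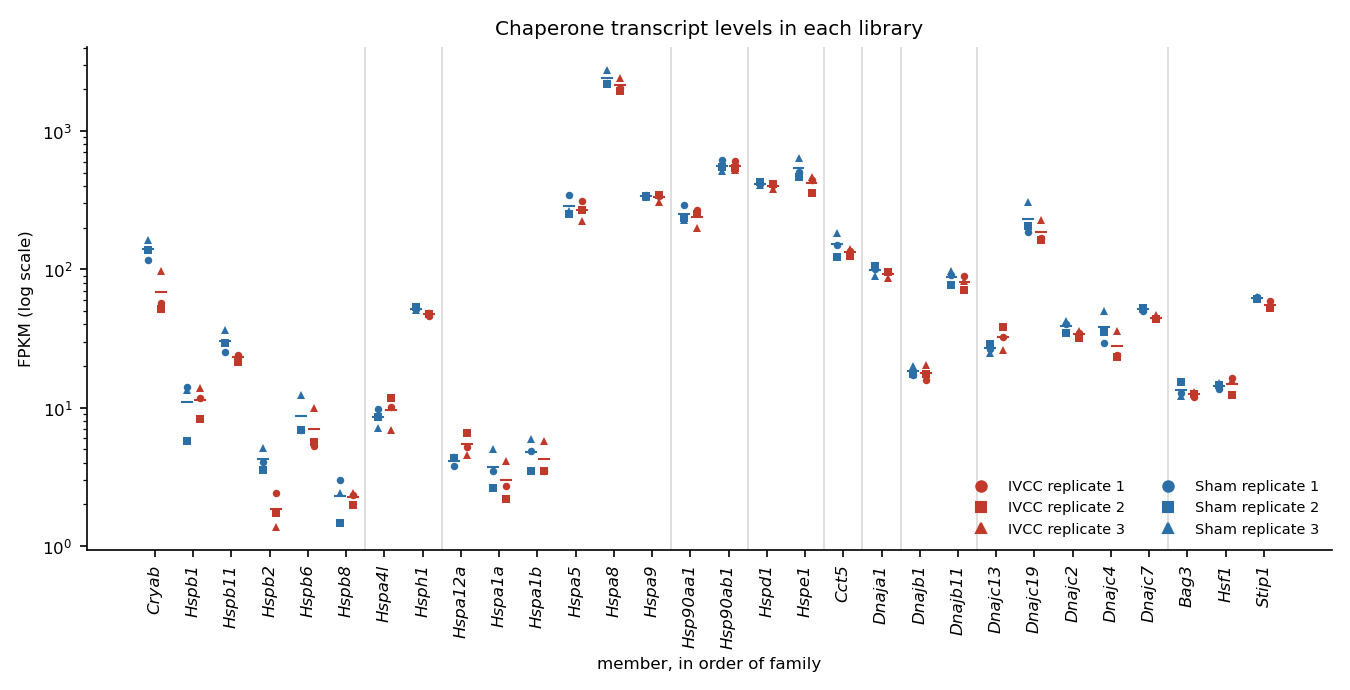
FPKM of selected chaperone genes (logarithmic axis) in each of the 3 IVCC and 3 Sham libraries, with horizontal ticks at the group means. Hspa8 stands near 2000 FPKM or above in every library, and Hspb2 and then Cryab have the group means furthest apart on this axis.

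Of the 86 members, 77 averaged 1 FPKM or more across all libraries and were tested with limma on log2(FPKM + 1) together with all 12090 genes that passed this filter. None was called at an adjusted p under 0.05, where the share called over all genes was 0%. The smallest adjusted p of a member was 0.905, and limma with no trend or robust variances also called none. At an unadjusted p under 0.05 there were 3 members lower in IVCC (Cryab, Hspb2 and Hspb11) and 0 higher, which is 3.90% of the 77, where the background over all genes was 1.87% lower and 1.7% higher. The fitted value was lower in IVCC for 54 members and higher for 23, so 70.1% were lower against a background of 51.6%. The median log2 fold change (IVCC minus Sham) was -0.08, where that of all genes was -0.01. All 3 IVCC values lay below all 3 Sham values for 10 members (13%, background 4.22%) and above them for 2 (2.60%, background 4.09%). The 10 were Cryab, Hspb2, Hspb11, Hsph1, Cct6a, Cct8, Dnaja2, Dnajc7, Dnajc21 and Stip1, and the 2 were Hspa12a and Dnajb12. Most differences were small, with 61 of 77 members within 0.2 of zero on the log2 scale. In bulk tissue, fewer cells of a type and less RNA per cell cannot be told apart.

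The lean to lower values depended on how libraries were scaled. Rescaling to TPM moved the median of all genes up by 0.15 on the log2 scale, and 15 members were then lower and 62 higher, though 52 of the 77 still lay below the median of all genes. With quantile normalization 43 were lower and 34 higher. Without Sham replicate 3, 45 were lower and 32 higher, and the median moved to -0.03.

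**Figure D2:**
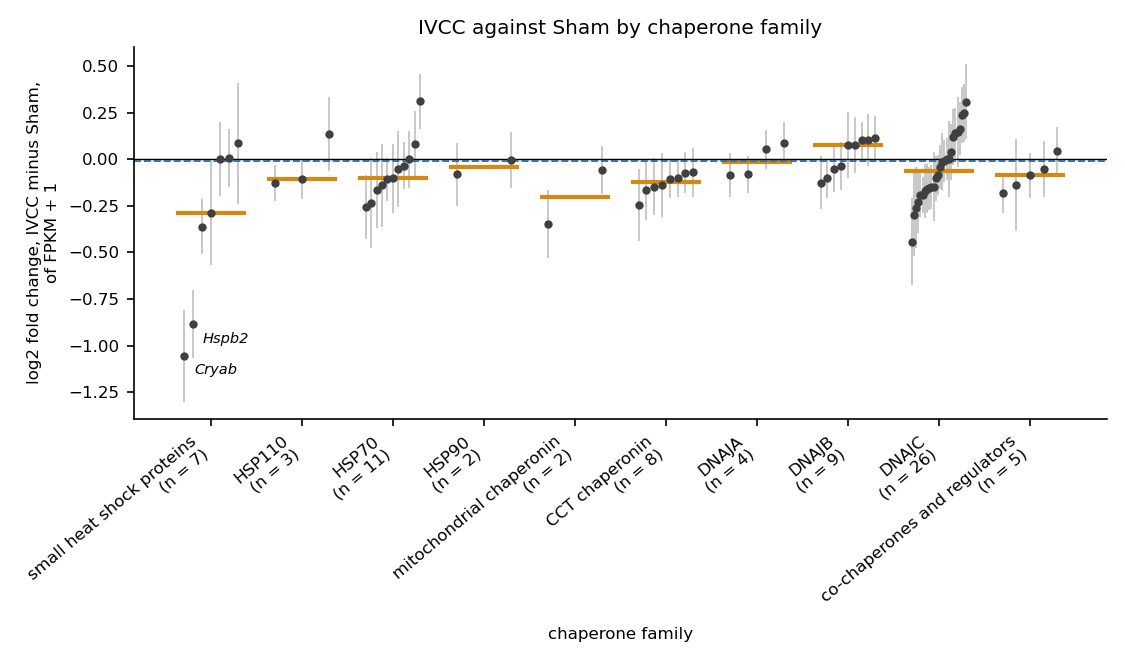
Log2 fold change (IVCC minus Sham, on the log2(FPKM + 1) scale) of each tested member by chaperone family, with its limma standard error. Orange bars mark family medians and the dashed blue line the median of all tested genes. The 8 CCT genes all lie below zero at the deposited scaling, and Cryab and Hspb2 lie lowest of all members.

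Small heat shock proteins held the widest range of differences, 4 lower and 3 higher with a median log2 fold change of -0.29, which was -0.03 without Sham replicate 3. With quantile normalization 6 were lower and 1 higher. Cryab, which encodes alphaB-crystallin, stood at 56.6, 51.8 and 97.3 FPKM in IVCC replicates 1 to 3 and at 117, 138 and 162 FPKM in Sham replicates 1 to 3. All IVCC values were below all Sham values, and IVCC replicate 3 was the closest to Sham. The means were 68.6 ± 25.0 FPKM in IVCC and 139 ± 22.6 FPKM in Sham, so IVCC was at 49.3% of Sham. The log2 fold change was -1.05 with a standard error of 0.25, at an unadjusted p of 0.00317 and an adjusted p of 0.924 (limma). Cryab was lower with an unadjusted p under 0.05 in each of the 18 other settings tried, with log2 fold changes from -1.33 to -0.88, and was called in none of them. With 3 libraries a group, exact permutation reaches no two-sided p below 0.1 and was not run for single genes.

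Hspb2, a small heat shock protein otherwise known from muscle, is the head-to-head neighbour of Cryab. It had 2.40, 1.74 and 1.37 FPKM in IVCC and 4.05, 3.52 and 5.08 FPKM in Sham. Again every IVCC library was below every Sham library, but the order within IVCC differed from that of Cryab, with replicate 3 lowest. Its log2 fold change was -0.88 with a standard error of 0.18 (unadjusted p = 0.00154, limma adjusted p = 0.905). It was lower in each of the 17 other settings that kept it, with values from -1.18 to -0.43. In GENCODE M21 (GRCm38), Cryab lies on the plus strand at chr9:50751325-50756636 and Hspb2 on the minus strand at chr9:50751078-50752354. Their exons share 252 bases, 30.2% of the exonic bases of Hspb2 and 17.04% of those of Cryab. Whether the counting used strand is not given in the sources used here, so reads of the more abundant Cryab in Hspb2 were not tested, and the Hspb2 values are uncertain.

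**Figure D3:**
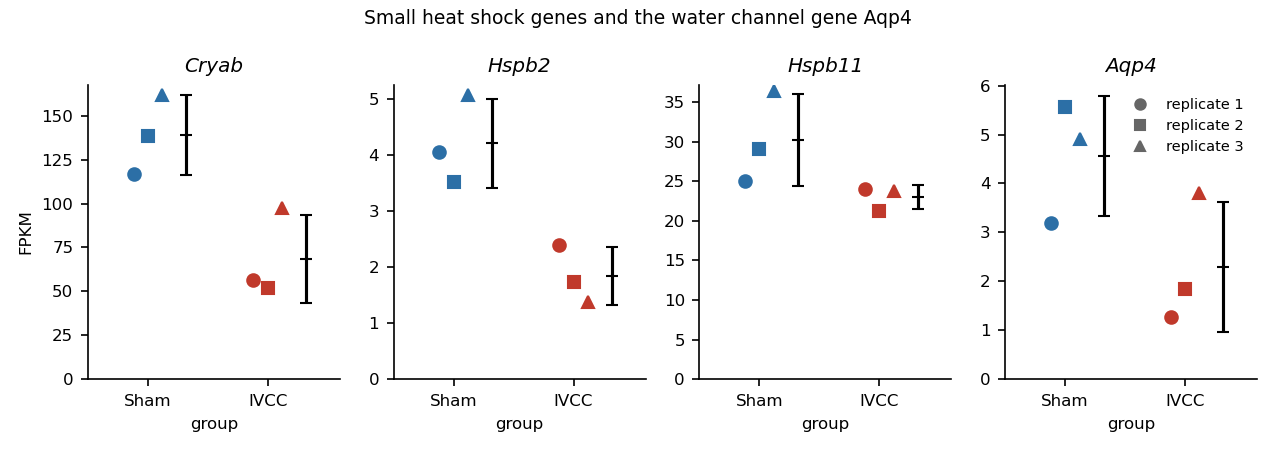
FPKM of Cryab, its neighbour Hspb2, Hspb11 and the water channel gene Aqp4 by replicate, with group means and SD (n = 3). IVCC lies below Sham in all libraries of Cryab and Hspb2, at 68.6 against 139 FPKM for Cryab and 1.83 against 4.21 FPKM for Hspb2. Hspb11 is also separate. Aqp4, picked out after its values were seen, overlaps between the groups.

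Markers of the cells that are known to hold Cryab were read beside it. Of 7 marker genes of collecting duct principal cells, 5 were lower and 2 higher in IVCC, and their summed FPKM was 320 to 455 in IVCC and 382 to 501 in Sham, which overlap. Aqp4, a water channel of the deeper collecting duct, was at 1.26, 1.84 and 3.799 FPKM in IVCC and 3.20, 5.57 and 4.92 FPKM in Sham, and was picked out after its values were seen (log2 fold change -0.80, unadjusted p = 0.0283). Its groups overlapped, and its mean of 3.43 FPKM was the lowest of the 7 markers. Aqp2, the vasopressin-regulated water channel, overlapped at 138, 75.6 and 130.3 FPKM against 185, 107 and 139.9 FPKM. The 2 higher markers were Aqp3 and Scnn1g, with log2 fold changes of 0.08 and 0.26. Fxyd4, Hsd11b2 and Avpr2 had log2 fold changes of -0.23, -0.03 and -0.08. Each of these also overlapped between the groups. The urea transporter gene Slc14a2 of the inner medulla had 0, 0.043 and 0 FPKM in IVCC and 1.115, 0 and 0.3 FPKM in Sham. The 3 genes of thin limbs and urea transport, Slc14a2 among them, summed to 291 to 323 FPKM in IVCC and 326 to 371 FPKM in Sham, without overlap. The osmolyte genes that could be tested, 2 of 4, were both slightly higher in IVCC. Smooth muscle markers, also a known site of Cryab, were lower for 4 of 5, with sums of 24.7 to 51.5 and 42.5 to 57.8 FPKM. Among them Cnn1, a calponin of the contractile apparatus, also picked out after its values were seen, was at 1.085, 0.197 and 0.670 FPKM in IVCC and 1.67, 1.55 and 1.64 FPKM in Sham, without overlap (log2 fold change -0.70, unadjusted p = 0.0132). Of 7 striated muscle genes, Ckm, Myh4 and Myh1 were at 0 in all libraries, Acta1, Tnnt3 and Tnni2 were below 1 FPKM in each, and Mylpf ran from 1.49 to 2.77 FPKM. The list summed to 1.64 to 3.32 FPKM in IVCC and 2.06 to 3.08 FPKM in Sham. The part of these cell types in the Cryab difference was not tested.

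The other small heat shock genes differed less. Hspb11, also known as Ift25, encodes a protein of intraflagellar transport in cilia and is counted in this family by its symbol. It was at 24.1, 21.3 and 23.8 FPKM in IVCC and 25.0, 29.0 and 36.5 FPKM in Sham. The groups were separate, with Sham replicate 1 just above IVCC, and the log2 fold change was -0.36 with a standard error of 0.15 (unadjusted p = 0.0444, limma adjusted p = 0.924). The unadjusted p stayed under 0.05 in 8 of 18 other settings, and without Sham replicate 3 the log2 fold change was -0.22. Hspb6, the HSP20 of smooth muscle, averaged 6.94 ± 2.56 and 8.69 ± 3.15 FPKM with overlap. Hspb1, the stress-inducible HSP27 homologue whose promoter window is shown above, was at 11.6, 8.23 and 13.9 FPKM in IVCC and 14.1, 5.75 and 13.3 FPKM in Sham. These groups ran through each other, and the log2 fold change of 0.08 had a 95% interval from -0.67 to 0.84. Hspb8, the partner of BAG3 in clearing clumped proteins, gave 0.0021 (95% interval -0.46 to 0.46). Of Hspb1's 75-base windows 46.4% also occur in another annotated transcript, chiefly a pseudogene, so its level is uncertain.

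In the HSP70 family 9 of 11 tested genes were lower and 2 higher, with a median log2 fold change of -0.10. The split was 2 lower and 9 higher with TPM and 6 lower and 5 higher with quantile normalization. Leaving out single libraries moved the median between -0.18 (without Sham replicate 2) and -0.03 (without Sham replicate 1), and without IVCC replicate 3 it was -0.05, with 6 lower and 5 higher. Hspa8 was at 2047, 1953 and 2404 FPKM in IVCC and 2225, 2201 and 2764 FPKM in Sham. Replicate 3 was the highest library of each group, and IVCC replicate 3 exceeded Sham replicates 1 and 2, so the groups overlapped (log2 fold change -0.16, 95% interval -0.64 to 0.32, unadjusted p = 0.448). Of its 75-base windows 66.0% also occur in other annotated transcripts, chiefly a processed pseudogene, which makes the level uncertain.

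The stress-inducible genes were low and overlapped. Hspa1a was at 2.70, 2.16 and 4.10 FPKM in IVCC and 3.50, 2.60 and 5.003 FPKM in Sham, and Hspa1b at 3.48, 3.50 and 5.74 FPKM against 4.85, 3.49 and 5.91 FPKM. In both genes replicate 3 was the highest library of its group, and the means differed by less than 1 SD. The log2 fold changes were -0.24 (95% interval -0.80 to 0.33) for Hspa1a and -0.14 (95% interval -0.66 to 0.38) for Hspa1b, so a modest change in either direction is not excluded by these 6 libraries. These copies lie near each other on chromosome 17 and share 54.2% and 55.8% of their 75-base windows, so reads may be split between them. Hspa5, the BiP chaperone of the endoplasmic reticulum, was at 312, 269 and 222 FPKM in IVCC and 345, 253 and 266 FPKM in Sham (log2 fold change -0.10, 95% interval -0.53 to 0.33). Hspa9, the mitochondrial HSP70 known as mortalin, averaged 330.2 ± 22.1 FPKM after IVCC and 338 ± 4.32 FPKM after Sham surgery (log2 fold change -0.03). The 2 genes higher in IVCC were Hspa13, which overlapped (log2 fold change 0.08), and Hspa12a, a distant HSP70 relative. Hspa12a was at 5.17, 6.53 and 4.53 FPKM in IVCC and 3.75, 4.29 and 4.37 FPKM in Sham. All IVCC libraries were above all Sham libraries of Hspa12a (log2 fold change 0.31, standard error 0.15, unadjusted p = 0.0705, limma adjusted p = 0.924).

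The HSP110 genes encode the nucleotide exchange factors of HSP70. Hsph1, whose promoter window is shown above, was at 45.8, 47.8 and 48.2 FPKM in IVCC and 51.5, 53.2 and 50.4 FPKM in Sham. The groups did not overlap, and each was tight. The log2 fold change was only -0.13 (standard error 0.10, unadjusted p = 0.230). Hspa4 and Hspa4l overlapped between the groups, with log2 fold changes of -0.11 and 0.14. All 3 were higher in IVCC with TPM scaling.

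HSP90 transcripts overlapped between the groups, and both genes were higher in IVCC with TPM or quantile scaling. Hsp90ab1, the constitutive cytosolic form, was at 606, 539.8 and 523 FPKM in IVCC and 614, 549 and 512 FPKM in Sham, and replicate 1 was the highest library of each group. Its log2 fold change was -0.0039 with a 95% interval from -0.35 to 0.34. The inducible form Hsp90aa1 averaged 238 ± 35.8 and 251 ± 35.6 FPKM (log2 fold change -0.08, 95% interval -0.47 to 0.31), and 50.9% of its 75-base windows recur in other transcripts. Stip1, the adaptor between HSP70 and HSP90, did separate, at 58.8, 52.4 and 53.2 FPKM in IVCC and 62.6, 60.7 and 63.5 FPKM in Sham. Every IVCC library was below every Sham library, and the log2 fold change was -0.18 (standard error 0.10, unadjusted p = 0.117). Bag3, a nucleotide exchange factor of selective autophagy, averaged 12.4 ± 0.573 and 13.3 ± 1.64 FPKM. Hsf1, which encodes the master regulator of the heat shock response, averaged 14.9 ± 2.19 and 14.3 ± 0.666 FPKM (log2 fold change 0.04, 95% interval -0.26 to 0.35). The HSF1 protein is known to be regulated mainly after translation, which these data do not measure.

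All 8 tested subunit genes of the CCT chaperonin were lower in IVCC, with log2 fold changes from -0.25 to -0.07 and a median of -0.12. This held with median-ratio scaling, but the split was 1 lower and 7 higher with TPM, where all 8 lay below the median of all genes, and 4 lower and 4 higher with quantile normalization. Without Sham replicate 3, 6 were lower and 2 higher, with a median of -0.04. None had an unadjusted p under 0.05. Cct5 was the highest, at 135, 125 and 141 FPKM in IVCC and 149, 123 and 183 FPKM in Sham, with Sham replicate 2 the lowest of the 6 libraries. Cct6a was at 113.1, 112.7 and 113.2 FPKM in IVCC and 122.8, 119.5 and 121.6 FPKM in Sham, so its groups were tight and separate (log2 fold change -0.10). Cct8 averaged 91.3 ± 3.12 and 98.4 ± 1.14 FPKM, also without overlap. Tcp1, the remaining ring subunit, which the naming rule leaves out, was at 86.0, 90.2 and 84.3 FPKM in IVCC and 94.1, 95.9 and 98.1 FPKM in Sham, again separate, with a log2 fold change of -0.14 (unadjusted p = 0.198).

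At the deposited scaling both mitochondrial chaperonin genes had lower fitted values in IVCC, and the difference between them was not tested. Hspe1, the lid, was at 442, 357 and 463 FPKM in IVCC and 506, 462 and 642 FPKM in Sham. Only Sham replicate 2 lay within the IVCC range, by a narrow margin (log2 fold change -0.35, standard error 0.18, unadjusted p = 0.0974), and the log2 fold change was -0.21 without Sham replicate 3. Hspd1, the chamber, was at 407, 416 and 377 FPKM in IVCC and 414, 428 and 406 FPKM in Sham, with a log2 fold change of -0.06 (95% interval -0.35 to 0.24). Of the 75-base windows 33.7% for Hspd1 and 23.7% for Hspe1 also occur in other annotated transcripts, so both levels are uncertain. The pair shares the promoter run of units shown above, and its transcripts differ in length, at 774 bases for Hspe1 and 2423 bases for Hspd1. Over the 15 tested members with the shorter motif the median log2 fold change was -0.08, with 10 lower and 5 higher, and over the 46 with neither motif it was -0.09.

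The J-domain genes were the most numerous group, with 39 members tested. Among 26 tested Dnajc genes 17 were lower and 9 higher, among 9 Dnajb genes 4 and 5, and among 4 Dnaja genes 2 and 2. With TPM these became 6 and 20, 0 and 9, and 0 and 4. Dnajc7, a co-chaperone with TPR repeats that works between HSP70 and HSP90, was at 44.4, 43.3 and 46.5 FPKM in IVCC and 50.2, 52.0 and 51.4 FPKM in Sham. The groups were well apart for the size of the difference (log2 fold change -0.19, standard error 0.10, unadjusted p = 0.0872). Dnajc4 averaged 27.7 ± 7.18 and 38.1 ± 10.5 FPKM (log2 fold change -0.44, and -0.24 without Sham replicate 3), with overlap. Dnajc2, a ribosome-associated J-protein, averaged 33.9 ± 2.02 and 39.0 ± 3.96 FPKM, and Dnajc19, of the mitochondrial import motor and the highest Dnajc gene, 186 ± 36.05 and 232 ± 64.4 FPKM. Dnajc13, a long gene of endosomal trafficking, went the other way at 32.3 ± 6.12 and 26.7 ± 2.14 FPKM (log2 fold change 0.25, unadjusted p = 0.148). Its log2 fold change was 0.12 without IVCC replicate 2 and 0.39 without IVCC replicate 3. Dnajb1, the inducible partner of HSP70, was at 15.7, 17.4 and 20.3 FPKM in IVCC and 17.2, 17.4 and 20.1 FPKM in Sham, which overlapped throughout (log2 fold change -0.03, 95% interval -0.34 to 0.27). Dnaja1 averaged 92.4 ± 5.72 and 98.1 ± 8.42 FPKM, and Dnajb11, of the endoplasmic reticulum, 80.6 ± 9.75 and 88.0 ± 10.3 FPKM.

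The 9 members below the filter were Hspb3, Hspb9, Cct8l1, Dnajb3, Dnajb7, Dnajb8, Dnajb13, Dnajc5b and Dnajc5g. Of these, 4 were listed at 0 in every library (Hspb3, Dnajb8, Dnajc5b and Dnajc5g). Dnajb13, a protein of motile cilia and sperm tails, had 0.129, 0.125 and 0.463 FPKM in the IVCC libraries, and all Sham libraries were listed at 0. Low values of this kind can be failed estimates and were not tested.

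The direction of a member went with the length of its transcript, as it did over all genes. Of 13 members under 1500 bases 11 were lower, with a median log2 fold change of -0.29, and of 64 longer ones 43 (67.2%) were lower, with a median of -0.06. Over all tested genes 80.1% of those under 1500 bases were lower, with a median of -0.16, and 43.3% of the longer ones, with a median of 0.03. Across 9 length classes the share of all genes that was lower ran from 82.9% at 750 to 1000 bases to 12.8% above 6000 bases. Cryab, at 896 bases, Hspb2, at 662.5, and Hspb11, at 607.5, are all short, as is Hspe1. The short members lay at -0.11, -0.34 and 0.05 relative to their means over the 6 libraries in IVCC replicates 1 to 3, and at -0.02, 0.00105 and 0.44 in Sham. Sham replicate 3 stood highest and IVCC replicate 2 lowest. After subtracting each library's trend on transcript length and GC content, the log2 fold change of Cryab was -0.88 (unadjusted p = 0.000837) and that of Hspb2 -0.75 (unadjusted p = 0.0126). Hspb11 moved from -0.36 to -0.24 (unadjusted p = 0.0560), Hspe1 from -0.35 to -0.20 (unadjusted p = 0.0418) and Dnajc4 from -0.44 to -0.26 (unadjusted p = 0.111). The median of the small heat shock genes moved from -0.29 to -0.12, and 51 members were lower and 26 higher.

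**Figure D4:**
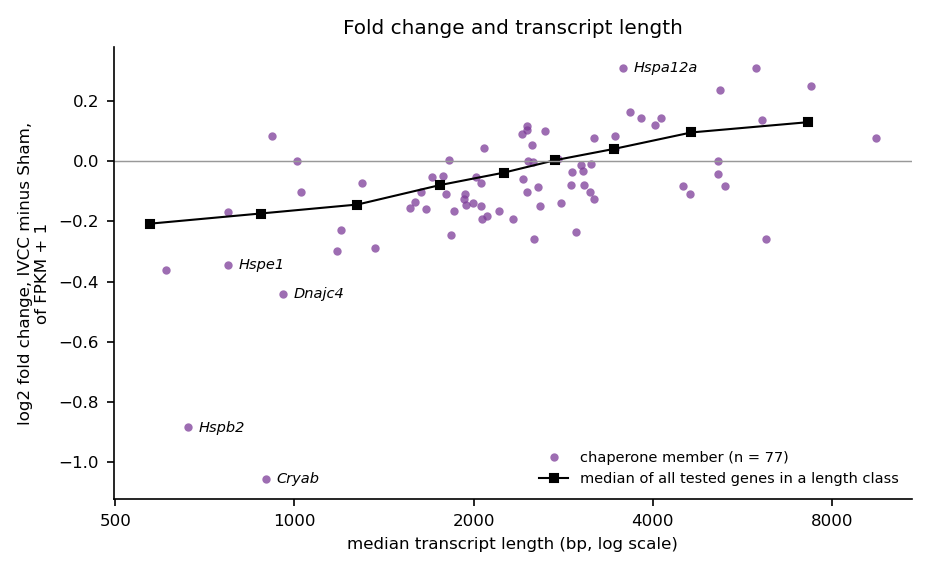
Log2 fold change (IVCC minus Sham) of the tested members against the length of their transcripts in bases (logarithmic axis), with black squares at the medians of all tested genes in 9 length classes. The medians run from -0.21 below 750 bases to 0.13 above 6000 bases, and Cryab and Hspb2 lie well below them.

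Other genes of the chaperone pathway were taken from 5 lists: co-chaperones of HSP70, co-chaperones of HSP90, prefoldin with Tcp1, mitochondrial protein quality control, and heat shock factors with their partners. There were 55 such genes measured and 53 tested. At the deposited scaling 40 were lower and 13 higher in IVCC, with a median log2 fold change of -0.11. With TPM 17 were lower and 37 higher, and 41 lay below the median of all genes. The median was -0.05 with quantile normalization (34 lower, 19 higher) and -0.04 without Sham replicate 3 (35 lower, 18 higher). No gene passed the adjustment over all genes in limma, and 1 of the 53 (1.89%) was lower at an unadjusted p under 0.05, a share close to the 1.87% over all genes. That gene was Pdcl3, a phosducin-like co-chaperone of CCT, at 30.4, 31.8 and 31.0 FPKM in IVCC and 38.4, 37.0 and 38.5 FPKM in Sham. The groups did not overlap (log2 fold change -0.28, standard error 0.10, unadjusted p = 0.0191, limma adjusted p = 0.924). The HSP90 co-chaperones Ppid, a cyclophilin, and Ptges3, known as p23, were also lower without overlap, at 25.6 ± 0.777 against 30.4 ± 2.73 FPKM and 91.2 ± 7.70 against 107 ± 4.23 FPKM. Tsc1, of the same list, was higher without overlap, at 6.60 ± 1.40 against 5.37 ± 0.360 FPKM. Over the 53 tested genes, 4 were lower without overlap (7.55%, background 4.22%) and 1 higher (1.89%, background 4.09%). By list, 9 of 13 co-chaperones of HSP70, 13 of 17 of HSP90, 8 of 10 prefoldin genes with Tcp1 and 7 of 10 mitochondrial genes were lower. So were the 3 tested genes of the list of heat shock factors with their partners (Hsf2, Hsbp1 and Hsf2bp).

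The genes whose pattern over the 6 libraries was most like that of Cryab, by Pearson's r of log2(FPKM + 1), were Fam53a (r = 0.996), Ppil1 (0.993), Ppic (0.993), Ssbp1 (0.992) and Trmt61b (0.991). They were picked as the highest of the 12090 tested genes after predicted and clone-named genes were left out, so the values are a description. Ppic, a cyclophilin of the secretory pathway, was at 61.3, 58.3 and 79.2 FPKM in IVCC and 95.7, 106 and 119 FPKM in Sham, with the libraries in the same order as for Cryab. In the same ranking Hspb2 was 1620th, with r = 0.719.

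Markers of the kidney's main cells were present in all libraries. The 5 proximal tubule markers summed to 3237 to 3458 FPKM in IVCC and 2890 to 3146 FPKM in Sham. Most of this sum was Slc34a1, at 2377 to 2576 FPKM in IVCC and 2131 to 2258 FPKM in Sham. Lrp2, Slc5a2, Slc22a6 and Cubn overlapped between the groups, and Slc22a6 had a lower fitted value in IVCC (log2 fold change -0.08). All 5 podocyte markers and all 5 endothelial markers had higher fitted values in IVCC. Of 4 fat genes, Adipoq and Plin1 were at 0 throughout, Cidec was at most 0.145 FPKM, and Fabp4, which endothelium also expresses, ran from 74.7 to 140.3 FPKM with overlap. Of 5 adrenal genes, Cyp11a1 and Cyp11b1 were at 0 throughout, and the list summed to 0.69 to 1.20 FPKM, most of it Star. The urothelial markers summed to 7.97 FPKM in Sham replicate 3 against at most 1.29 FPKM in the other libraries. The part of these differences in the chaperone values was not tested.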

How the data were processed

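Per the labels' protocols, kidney RNA went into stranded mRNA libraries that were read from one end for 75 bases. The authors deposited 1 table of FPKM, 24346 genes by 6 libraries. The submitters' processing notes name mm10, Cufflinks 2.2.1, TopHat2 2.0.13, SAMtools 0.1.19 and Bowtie2 2.2.3, without roles. Annotation, filters and use of strand: not given in the sources used here. Library sums were 719896 to 1118260 FPKM, and 0 columns belonged to other samples. No read totals were used, so no counting intervals are given.

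The 12090 genes averaging 1 FPKM or more were tested on log2(FPKM + 1), pseudocount 1, in limma 3.58.1 (R 4.3.3) with a mean-variance trend, IVCC against Sham, 3 libraries each, two-sided, Benjamini-Hochberg over all genes at 0.05. Fold changes on this scale understate those of low genes. Intervals are limma's 95% intervals of the fold change.

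Named were the 10 members with the smallest unadjusted p, the highest member of each family, a fixed set of well-known genes, the 3 pathway genes with the smallest p with Tcp1, and the 5 genes most like Cryab. Members outside this rule were named where their groups did not overlap, where they fell below the filter, or to complete a family or the higher members of one. Tsc1 was named because its groups did not overlap. Members, lists and rule were chosen with earlier results of these data known. Lengths, positions and shared 75-base windows come from GENCODE M21 basic transcripts, and 96.3% of tested genes had a length. Of the 86 members, 11 share at least 10% of these windows with other genes. Alternatives were pseudocounts 0.1 and 5, no filter or 5 FPKM, TPM, median-ratio and quantile scaling, 2 variance settings, a length and GC correction, the replicate number as a block, both together, and each library left out.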

Additional observations from a re-analysis of the deposited data

How the results depend on the processing

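Of 34 named genes, 16 kept their sign in every other setting that tested them, 13 of them in all 18 and 3 (Hspb2, Hspa12a and Hspa1a) in the 17 without the 5 FPKM filter. None of the 34 was called in any. The number of genes called, 0, was 23 with no filter on low values, 1 with the replicate block and the length and GC correction together, and 0 to 4 when each library was left out in turn. The 54 members lower became 15 with TPM. Their median of -0.08 became 0.078 with TPM and -0.019 with quantile normalization, and lay between -0.106 and -0.035 when libraries were left out, the smallest without Sham replicate 3. The count at an unadjusted p under 0.05 was 431, against 214 without IVCC replicate 1, 216 without IVCC replicate 2 and 1039 without IVCC replicate 3. With the replicate number as a block 0 genes were called, and 2388 of the 12090 had an unadjusted p under 0.05 in limma. At that level 13 of the 77 members were lower and 3 higher. The direction of the 2388 was not counted, so the member split has no background and is not read as a result about chaperones. The same-numbered libraries correlated at -0.11, 0.34 and 0.32 after removing group means, and IVCC replicate 1 correlated best with Sham replicate 2. The labels do not say that a number marks a shared batch, and since not every pair correlated the numbers were not taken as pairs, which leaves a shared batch of some libraries undecided. Without read totals the precision of genes at a few FPKM is not known.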
